A study of Homo sapiens with 6 samples.

Results

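The transcripts described here encode translation initiation and elongation factors, measured in CAL27, an established line of human tongue squamous carcinoma cells. Members were all protein-coding genes of GENCODE release 29 whose symbols start with EIF1 to EIF6, EEF1 or EEF2, without the eIF2 kinases (EIF2AK symbols), the eIF2 subunits (EIF2S symbols) and EEF1E1. The rule works by name and uses no measured value. GENCODE lists 62 such genes, and 60 of the 58243 genes with values were members here, while EEF1AKMT4 and EEF1AKMT4-ECE2 were not analysed here. The control group was 3 libraries of cells given phosphate-buffered saline (PBS) for 48 h. The treated group was 3 libraries of cells given 30 mM metformin, a biguanide drug that lowers blood glucose, for the same 48 h. Both groups are 1 cell line at 1 dose and 1 time, in the same serum-containing medium. Nothing in the labels states separate cultures for the libraries, so p-values gauge the spread between libraries alone, which may be technical.

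Translation initiation brings the initiator tRNA, an mRNA and both ribosomal subunits together at a start codon. The eIF2 protein carries the initiator tRNA and is recharged with GTP by eIF2B, while eIF3 and the eIF1 proteins hold the small subunit open for scanning and the cap-binding complex eIF4F (eIF4E, eIF4G and the helicase eIF4A) loads the mRNA. In elongation, eEF1A delivers each aminoacyl-tRNA and eEF2 moves the ribosome along by a codon. Cells under energy or amino acid stress are known to slow these steps through phosphorylation of eIF2, through the eIF4E-binding proteins downstream of mTORC1 and through eEF2 kinase, which are controls on proteins that RNA levels do not report.

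Levels are FPKM (fragments per kilobase, scaled to the mapped fragments of the library), so genes of different length can be set side by side. Judged from the steps between low values, the libraries counted an estimated 7810000 to 8820000 fragments. Only 42 to 45.1% of the low values used lay within 0.1 of a whole number of fragments, so these estimates are rough. All 9 squamous epithelial markers examined passed the level filter, and their summed level ranged from 1348 to 1430 FPKM with PBS and from 771 to 797 with metformin. The sum joins markers that moved apart, with 6 lower and 2 higher with metformin. KRT14 fell from a mean of 246 to 12.9 FPKM and KRT5 from 355 to 52.4 FPKM. EPCAM rose from 103 to 130 FPKM and CDH1 from 51.5 to 61.0 FPKM, and SFN did not pass (310 and 315 FPKM). The leukocyte genes PTPRC and CD3E, the endothelial genes PECAM1 and VWF, the fibroblast genes COL3A1 and DCN and the liver gene ALB were at or near 0. The endothelial list summed to 5.93 to 6.87 FPKM with PBS and 2.01 to 2.32 with metformin through CDH5, while the macrophage gene CD68 (means 2.15 and 3.33 FPKM) and the fibroblast list (1.5 to 2.04 against 2.33 to 2.74, through COL1A1) were higher with metformin. The part of these markers in the changes below was not tested. In bulk RNA, fewer cells of a type and less RNA per cell cannot be told apart.

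Of the 60 members, 55 averaged 1 FPKM or more across the libraries and were tested with limma on log2(FPKM + 1), and 32 of them differed between the groups at an adjusted p below 0.05. That is 58.2% of the tested members, beside 56.2% of all 13437 genes tested, so the share of changed members was near the background. By direction, 10 members (18.2%) rose, where 31.0% of all tested genes did, and 22 members (40.0%) fell, where 25.2% of all tested genes did. The counts of rises and falls given below for role groups and other lists stand beside these same background shares. The 6 values of 34 members (61.8%) did not overlap between the groups, beside 64.4% of all tested genes. Among called members, 16 moved by 0.5 or more in log2 (29.1% of those tested), 5 upward and 11 downward, beside 33.9% of all tested genes. The median change was -0.08 over the members and 0.06 over all tested genes. The members together held 4195 to 4511 FPKM with PBS and 4003 to 4319 with metformin, ranges that overlap. Members below the level filter, and so not tested, are EIF4EBP3, EIF5AL1, EIF1AY, EIF4E1B and EEF1E1-BLOC1S5.

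**Figure D1:**
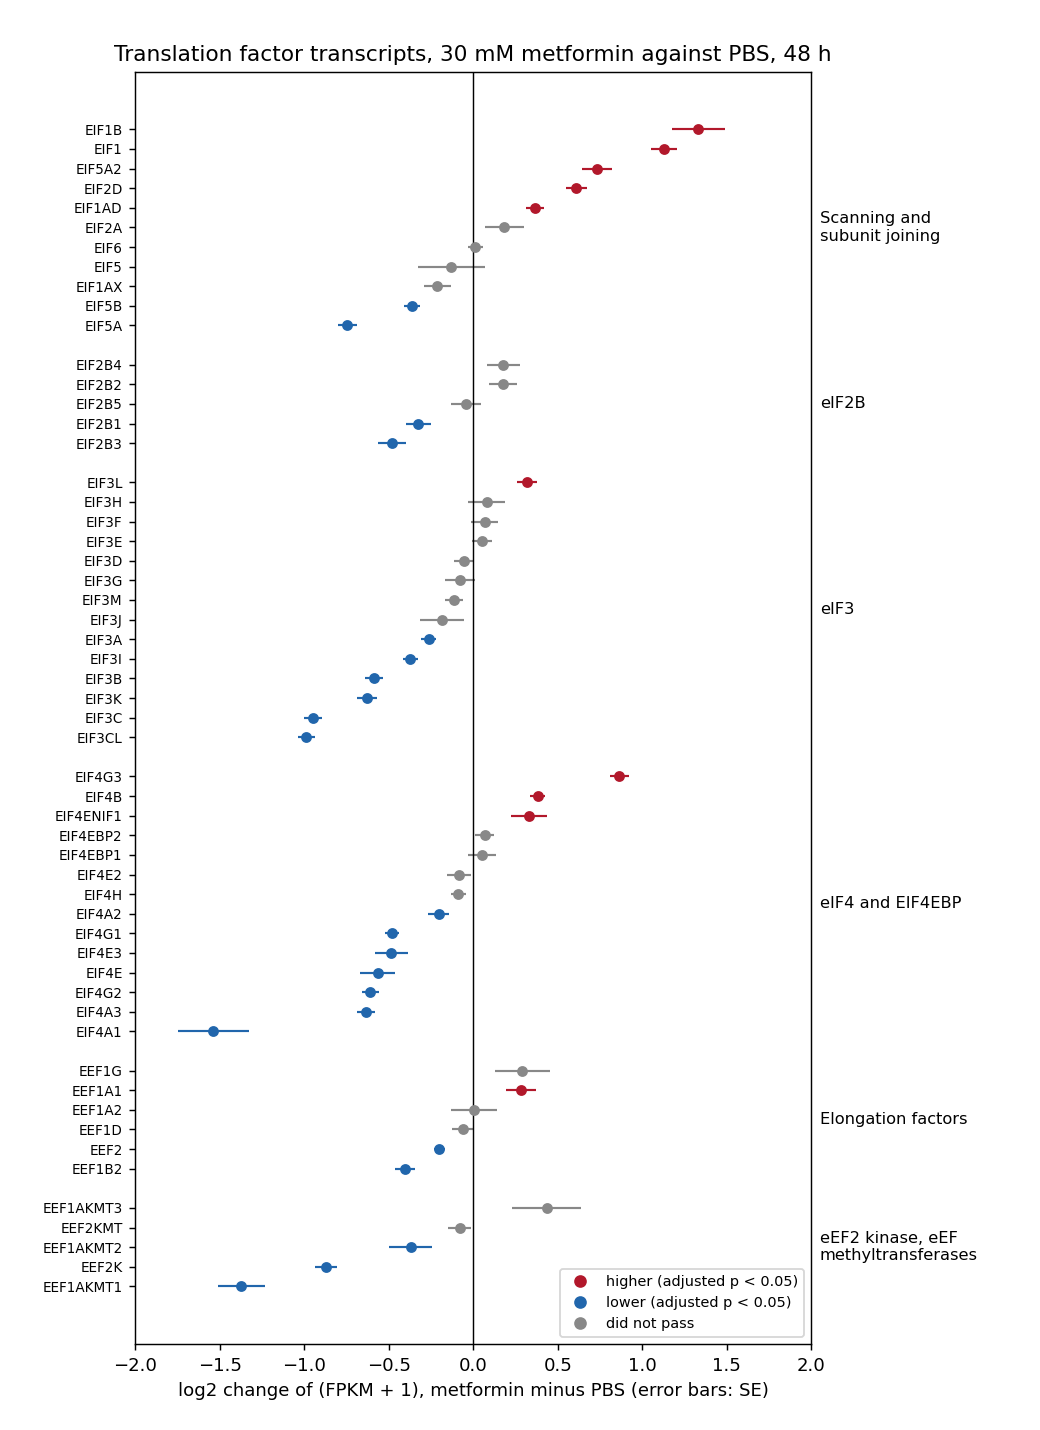
Log2 change of FPKM + 1 (x axis, metformin minus PBS, with SE) for the 55 tested members, grouped by role, in red for the 10 that rose, in blue for the 22 that fell and in grey for those that did not pass. The scanning group, which also holds the eIF5A genes, spreads to both sides, with EIF1B at 1.33 and EIF5A at -0.74. The lowest value is EIF4A1 at -1.54.

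The genes for start-codon scanning and subunit joining held the 2 largest rises among the members. Of 13 members, 11 were tested: 5 rose, 2 fell and 4 did not pass, with a median change of 0.18. The group also holds the eIF5A genes, whose proteins are not scanning or joining factors. EIF5A2 is among the 5 that rose and EIF5A among the 2 that fell. Transcripts of EIF1, the scanning factor that keeps the small subunit from committing to a poor start codon (ENSG00000173812, chr17:41688885-41692668, GRCh38), were at 24.7, 24.5 and 26.4 FPKM with PBS and at 59.6, 59.5 and 50.5 FPKM with metformin. The lowest metformin library was thus well above the highest PBS library. The means were 25.2 ± 1.04 and 56.5 ± 5.23 FPKM (SD, n = 3 each), a 2.24-fold rise (log2 change 1.13, SE 0.08, limma adjusted p = 4.79e-05). EIF1B, its close paralog on chromosome 3 (ENSG00000114784, chr3:40309684-40312424), was at 5.05, 7.21 and 4.97 FPKM with PBS and at 15.0, 14.0 and 18.7 FPKM with metformin. It rose 2.77-fold, by 1.33 on the log2 scale (SE 0.16, limma adjusted p = 0.000484), again without overlap, and stayed the less abundant paralog in every library. The EIF1B to EIF1 ratio was 0.188 to 0.294 with PBS and 0.236 to 0.371 with metformin, so the ranges of the ratio overlapped while both transcripts rose.

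EIF2D, an initiation factor that can place tRNA on the ribosome without GTP, was at 4.80, 4.42 and 4.71 FPKM with PBS and at 7.41, 7.71 and 7.74 FPKM with metformin. The 3 metformin libraries lay close together and above all PBS libraries, a 1.64-fold rise (log2 change 0.61, SE 0.06, limma adjusted p = 0.000287). EIF1AD, named for a domain like that of eIF1A, rose from 9.51 ± 0.20 to 12.5 ± 0.29 FPKM (SD, n = 3; log2 change 0.37, limma adjusted p = 0.00146). EIF5B, the GTPase that joins the large subunit, fell from 27.0 ± 0.67 to 20.8 ± 0.08 FPKM (SD, n = 3; log2 change -0.36, limma adjusted p = 0.000822).

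The eIF5A paralogs, whose proteins carry the modified lysine hypusine and ease the ribosome through difficult stretches, moved in opposite directions. EIF5A (ENSG00000132507, chr17:7306999-7312463) was at 158, 167 and 168 FPKM with PBS and at 94.6, 104 and 94.6 FPKM with metformin. It fell by 0.74 on the log2 scale (SE 0.05, limma adjusted p = 6.26e-05), 1.68-fold, with no overlap. EIF5A2 (ENSG00000163577, chr3:170888415-170908693) was at 4.30, 4.44 and 5.09 FPKM with PBS and at 8.53, 8.85 and 7.60 FPKM with metformin, a 1.81-fold rise (log2 change 0.73, SE 0.09, limma adjusted p = 0.000508). The EIF5A2 to EIF5A ratio went from 0.0265 to 0.0303 with PBS to 0.0803 to 0.0902 with metformin, a difference of 1.60 on the log2 scale between a minor and a major transcript; this ratio was chosen after its values were seen and was given no test. EIF5AL1, an intronless copy of EIF5A, stayed at or below 0.195 FPKM and was not tested. The enzymes that make hypusine, DHPS and DOHH, had log2 changes of 0.31 (SE 0.21, limma adjusted p = 0.243) and 0.04 (SE 0.06, limma adjusted p = 0.599) and did not pass.

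Members of the same group that did not pass were EIF1AX, the scanning factor eIF1A, EIF2A, an alternative carrier of initiator tRNA, EIF5, which makes eIF2 hydrolyse its GTP, and EIF6, which keeps the large subunit from joining too early. Those changes on the log2 scale were -0.21 for EIF1AX (limma adjusted p = 0.0554), 0.18 for EIF2A (limma adjusted p = 0.207), -0.13 for EIF5 (limma adjusted p = 0.603) and 0.01 for EIF6 (limma adjusted p = 0.809). EIF6 was even across libraries, at 96.5, 97.8 and 99.97 FPKM with PBS and 96.4, 102 and 98.4 FPKM with metformin. EIF5 ranged from 10.5 to 15.3 FPKM with PBS and from 9.39 to 15.3 FPKM with metformin.

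**Figure D2:**
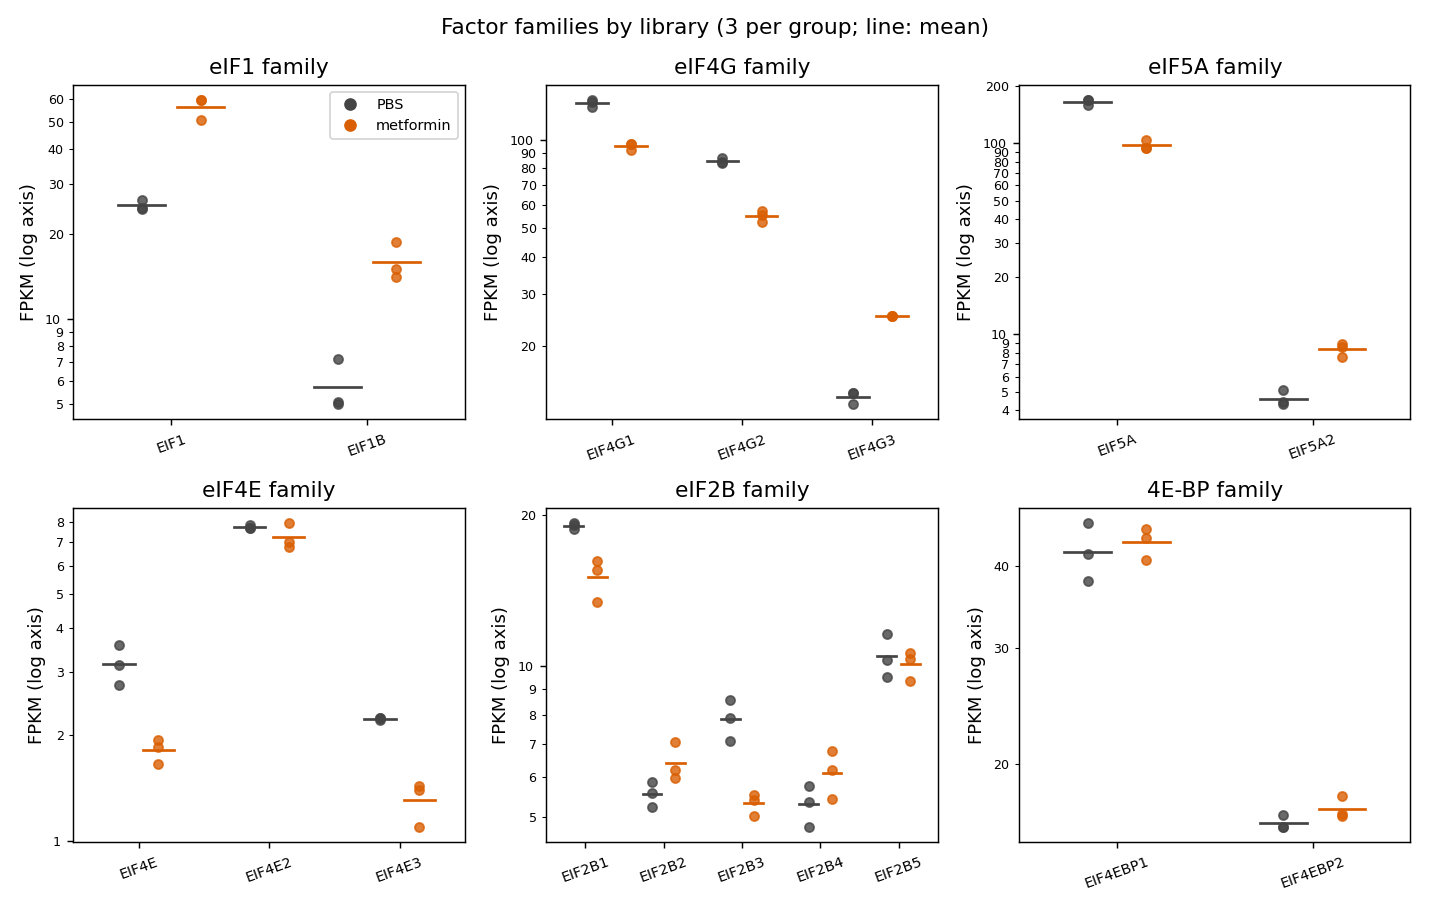
FPKM on a log axis for 6 factor families, with 1 point per library (grey PBS, orange metformin) and a line at the mean of 3. EIF4G3 lies near 13.4 FPKM with PBS and 25.2 with metformin while EIF4G1 and EIF4G2 lie lower with metformin, EIF5A2 and EIF5A shift in opposite directions, and both 4E-BP genes overlap between the groups.

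Of the 5 subunits of eIF2B, the exchange factor that recharges eIF2 and that phosphorylated eIF2 inhibits, none rose and 2 fell, with a median change of -0.04. EIF2B3, the gamma subunit and partner of the catalytic subunit, was at 7.08, 8.53 and 7.87 FPKM with PBS and at 5.41, 5.53 and 5.01 FPKM with metformin. Every metformin library was below every PBS library, and the log2 change was -0.48 (SE 0.08, limma adjusted p = 0.0027). EIF2B1, the alpha subunit, one of the regulatory subunits, was at 18.7, 19.1 and 19.3 FPKM with PBS and at 16.2, 13.4 and 15.5 FPKM with metformin, and fell by 0.32 on the log2 scale (SE 0.08, limma adjusted p = 0.0102). This call was close to the threshold: it no longer passed with both libraries numbered 3 left out (limma adjusted p = 0.0567). The beta subunit gene EIF2B2 was at 5.22, 5.88 and 5.59 FPKM with PBS and at 5.99, 6.21 and 7.06 FPKM with metformin (log2 change 0.17, limma adjusted p = 0.112). The delta subunit gene EIF2B4 was at 4.77, 5.36 and 5.75 FPKM with PBS and at 5.42, 6.77 and 6.20 FPKM with metformin (log2 change 0.18, limma adjusted p = 0.168). Neither passed, and EIF2B2 did not overlap between the groups. EIF2B5, the catalytic epsilon subunit, was at 11.6, 9.49 and 10.3 FPKM with PBS and at 9.33, 10.6 and 10.3 FPKM with metformin, 2 ranges that overlap. Summed over the complex, the level was 47.4 to 48.8 FPKM with PBS and 42.3 to 44.1 FPKM with metformin.

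Of 14 members of the eIF3 complex, the large scaffold on the small subunit, 1 rose, 6 fell and 7 did not pass, with a median change of -0.15. EIF3C and its near-identical copy EIF3CL, both on chromosome 16 (ENSG00000184110, chr16:28688558-28735730, and ENSG00000205609, chr16:28379579-28403879), encode the c subunit, and reads from one cannot be told from the other with certainty. Their ratio was between 2.48 and 2.56 in all 6 libraries. The sum of the pair was 175, 187 and 179 FPKM with PBS and 87.6, 94.7 and 89.3 FPKM with metformin. The groups were far apart and the sum fell 1.99-fold, by 0.98 on the log2 scale (SE 0.05, limma adjusted p = 1.33e-05, a sum formed after the values were seen). Singly, EIF3C was at 49.1, 52.6 and 50.3 FPKM with PBS and at 24.9, 26.6 and 25.7 FPKM with metformin (log2 change -0.95, limma adjusted p = 2e-05). EIF3CL was at 125, 134 and 129 FPKM with PBS and at 62.7, 68.1 and 63.6 FPKM with metformin (log2 change -0.99, limma adjusted p = 1.64e-05). Both entries were lower in every metformin library by like amounts, but they may be 1 measurement divided in 2. They count as 2 among the 6 eIF3 genes that fell, the 22 members that fell and the 11 large falls.

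EIF3B, a core subunit that contacts the small ribosomal subunit with EIF3G and EIF3I, was at 79.4, 77.9 and 76.4 FPKM with PBS and at 48.8, 54.0 and 51.7 FPKM with metformin. The log2 change was -0.59 (SE 0.05, limma adjusted p = 0.000136), with no overlap. EIF3K, a peripheral subunit, was at 55.3, 55.6 and 50.5 FPKM with PBS and at 36.1, 34.0 and 33.4 FPKM with metformin, and fell by 0.63 on the log2 scale (SE 0.06, limma adjusted p = 0.000184). Smaller falls were seen in EIF3A, the largest core subunit (log2 change -0.26, limma adjusted p = 0.00263), and EIF3I (log2 change -0.37, limma adjusted p = 0.000517).

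EIF3L, which binds EIF3K in the complex, was the member that rose. It was at 55.4, 56.5 and 59.2 FPKM with PBS and at 66.5, 74.6 and 73.0 FPKM with metformin (log2 change 0.32, SE 0.06, limma adjusted p = 0.00368). The 2 binding partners thus stood at like levels with PBS and apart with metformin, at means of 34.5 FPKM for EIF3K and 71.3 FPKM for EIF3L. EIF3D, a cap-binding subunit, and EIF3E, EIF3F, EIF3G, EIF3H, EIF3J and EIF3M did not pass, with log2 changes between -0.19 (EIF3J) and 0.08 (EIF3H). The summed level of the complex was 809 to 843 FPKM with PBS and 646 to 676 FPKM with metformin. Without EIF3C and EIF3CL the sums were 634 to 657 and 557 to 582 FPKM, still without overlap.

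**Figure D3:**
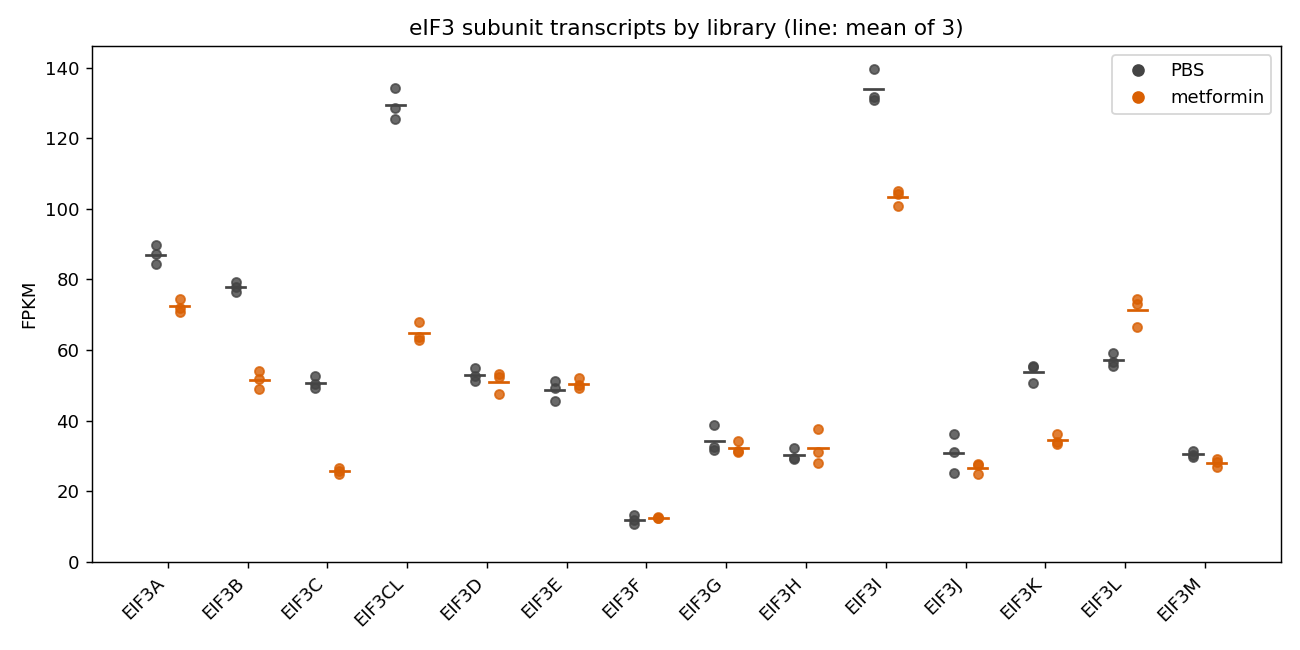
FPKM (linear axis from 0) of the 14 eIF3 genes, with 1 point per library (grey PBS, orange metformin) and a line at the mean of 3. EIF3CL, EIF3C, EIF3B, EIF3I, EIF3K and EIF3A sit lower with metformin, EIF3L sits higher, and the remaining 7 did not pass the test.

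In the eIF4 group, 14 of 16 members were tested, of which 3 rose, 7 fell and 4 did not pass, with a median of -0.15. Their summed level was 694 to 712 FPKM with PBS and 588 to 608 FPKM with metformin. The scaffold paralogs diverged. EIF4G3 (ENSG00000075151, chr1:20806292-21176888), a scaffold that like eIF4G1 joins the cap-binding protein to eIF4A, was at 13.8, 12.6 and 13.8 FPKM with PBS and at 25.3, 25.2 and 25.1 FPKM with metformin. The metformin libraries were nearly equal and far above the PBS libraries, a 1.88-fold rise (log2 change 0.86, SE 0.06, limma adjusted p = 3.88e-05). EIF4G1, the major scaffold (ENSG00000114867, chr3:184314495-184335358), was at 134, 130 and 136 FPKM with PBS and at 96.3, 97.0 and 92.4 FPKM with metformin. It fell by 0.48 on the log2 scale (SE 0.04, limma adjusted p = 0.000143). The EIF4G3 to EIF4G1 ratio, chosen after its values were seen and not tested, was 0.0976 to 0.103 with PBS and 0.260 to 0.272 with metformin. EIF4G2, a related scaffold that lacks the eIF4E site and serves cap-independent starts, was at 86.5, 84.0 and 83.2 FPKM with PBS and at 55.3, 57.3 and 52.6 FPKM with metformin. It fell with no overlap (log2 change -0.61, SE 0.05, limma adjusted p = 9.09e-05).

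The cap-binding proteins were low in level. EIF4E, the cap-binding subunit of eIF4F, was at 2.76, 3.58 and 3.14 FPKM with PBS and at 1.85, 1.65 and 1.93 FPKM with metformin. Its groups did not overlap and it fell 1.75-fold in FPKM, by 0.56 on the log2 scale (SE 0.10, limma adjusted p = 0.00346), where the scale understates changes of low genes. EIF4E3, a paralog with a weaker cap grip, fell from 2.22 ± 0.02 to 1.31 ± 0.18 FPKM (SD, n = 3; log2 change -0.48, limma adjusted p = 0.00513). EIF4E2, which binds the cap without eIF4G and acts in repression, was at 7.73 ± 0.07 and 7.25 ± 0.60 FPKM (SD, n = 3; log2 change -0.08, limma adjusted p = 0.362) and was the most abundant of the 3 in every library. EIF4ENIF1, which carries eIF4E into the nucleus and into processing bodies, rose from 3.43 ± 0.33 to 4.58 ± 0.64 FPKM (SD, n = 3; log2 change 0.33, limma adjusted p = 0.0346). That call was lost without any 1 of PBS replicate 2, PBS replicate 3, metformin replicate 1 or metformin replicate 3 (limma adjusted p 0.0523 to 0.0965).

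The helicase EIF4A1 (ENSG00000161960, chr17:7572706-7579005) had the largest fall on the log2 scale among tested members. It was at 40.8, 63.6 and 67.4 FPKM with PBS and at 19.8, 21.4 and 15.1 FPKM with metformin, which do not overlap. It fell by 1.54 on the log2 scale (SE 0.21, limma adjusted p = 0.000931), 3.05-fold. Its exons share 1586 bases on the same strand with the read-through gene SENP3-EIF4A1, which was at 18.4, 5.90 and 0.223 FPKM with PBS and at 16.7, 14.5 and 40.4 FPKM with metformin. EIF4A1 exons also share 2186 bases on that strand with AC016876.2, at means of 4.035 FPKM with PBS and 4.116 FPKM with metformin. The small nucleolar RNA genes SNORA67 and SNORD10 overlap them on that strand too. The sum given below leaves these further genes out. Within each group, the library with the least EIF4A1 had the most SENP3-EIF4A1. The sum of both, formed after the values were seen, was 59.2, 69.5 and 67.6 FPKM with PBS and 36.5, 35.9 and 55.5 FPKM with metformin. The sum fell 1.54-fold (log2 change -0.63, SE 0.17, limma adjusted p = 0.0172), the same direction with a smaller size. FPKM are scaled to the length of each gene, so the sum can shift with how shared fragments are divided. The size of its fall is therefore uncertain. How the authors' counting divided fragments between the 2 genes is not given in the sources used here.

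EIF4A2, the second helicase of eIF4F, fell from 53.4 ± 2.00 to 46.3 ± 2.89 FPKM (SD, n = 3; log2 change -0.20, limma adjusted p = 0.0271), and this call was lost without PBS replicate 1, PBS replicate 2 or metformin replicate 3 (limma adjusted p 0.0621 to 0.0772). EIF4A3, a helicase of the exon junction complex, was at 40.9, 43.6 and 41.5 FPKM with PBS and at 25.9, 27.7 and 26.6 FPKM with metformin. All 3 metformin libraries were below all PBS libraries, a fall of 0.63 on the log2 scale (SE 0.05, limma adjusted p = 0.0001). EIF4B, an RNA-binding protein that boosts the helicase, was at 77.4, 77.3 and 73.6 FPKM with PBS and at 102, 98.7 and 97.6 FPKM with metformin. It rose in all 3 metformin libraries over every PBS library (log2 change 0.38, SE 0.04, limma adjusted p = 0.000439). EIF4H, a smaller relative with the same role, was at 169 ± 7.59 and 158 ± 1.59 FPKM (SD, n = 3; log2 change -0.09, limma adjusted p = 0.14).

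The genes for the eIF4E-binding proteins, which block eIF4E until mTORC1 phosphorylates them, did not pass. EIF4EBP1 was at 41.6, 46.5 and 37.9 FPKM with PBS and at 40.8, 44.0 and 45.5 FPKM with metformin (log2 change 0.05, SE 0.08, limma adjusted p = 0.625). EIF4EBP2 was at 16.8, 16.1 and 16.1 FPKM with PBS and at 17.9, 16.8 and 16.7 FPKM with metformin (log2 change 0.07, SE 0.06, limma adjusted p = 0.332). Both pairs of ranges overlapped. The EIF4EBP1 to EIF4EBP2 ratio changed by -0.02 on the log2 scale (exact permutation test, two-sided p = 0.9, where 3 against 3 libraries cannot go below 0.1). EIF4EBP3 was at 0.404, 0.0250 and 0.519 FPKM with PBS and at 0.0193, 0.0784 and 0.00667 FPKM with metformin. It shares 507 exon bases with the read-through gene ANKHD1-EIF4EBP3, and the sum of both had a log2 change of 0.07 (limma adjusted p = 0.674).

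**Figure D4:**
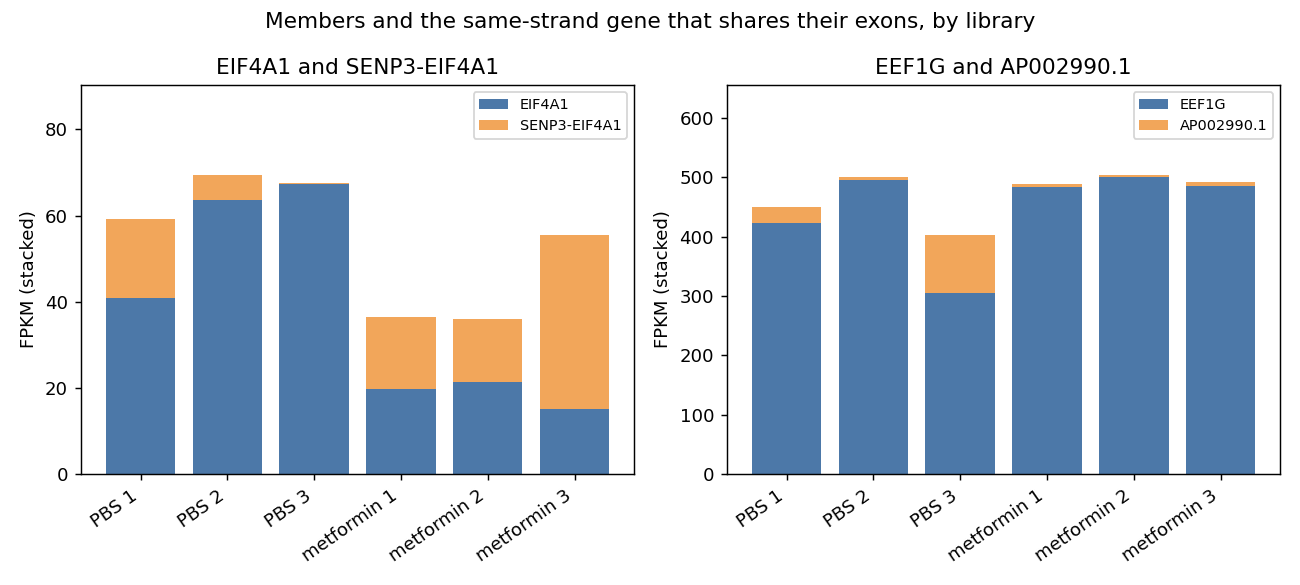
Stacked FPKM per library of EIF4A1 with SENP3-EIF4A1 (left) and of EEF1G with AP002990.1 (right), each a member and a same-strand gene that shares its exons. The summed bars of EIF4A1 run from 59.2 to 69.5 FPKM with PBS and from 35.9 to 55.5 FPKM with metformin, and the summed bars of EEF1G run from 402 to 499.7 FPKM with PBS and from 489 to 504 FPKM with metformin.

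The elongation factors had the highest summed level of the role groups, through EEF1A1, EEF2 and EEF1G. Of 6 tested, 1 rose, 2 fell and 3 did not pass, with a median change of -0.03. Their sum was 2312, 2470 and 2153 FPKM with PBS and 2617, 2508 and 2324 FPKM with metformin, so the groups overlapped. EEF1A1, the factor that delivers aminoacyl-tRNA (ENSG00000156508, chr6:73515750-73523797), was at 978, 1034 and 946 FPKM with PBS and at 1351, 1213 and 1057 FPKM with metformin. It rose 1.22-fold (log2 change 0.29, SE 0.09, limma adjusted p = 0.03), with metformin replicate 3 only just above PBS replicate 2. That call was lost without PBS replicate 1, PBS replicate 3, metformin replicate 1 or metformin replicate 2 (limma adjusted p 0.0699 to 0.0869) and under median-of-ratios scaling (limma adjusted p = 0.0656). EEF1A2, the isoform of muscle and neurons, was at 1.46, 1.15 and 1.496 FPKM with PBS and at 1.03, 1.62 and 1.501 FPKM with metformin. The EEF1A2 to EEF1A1 ratio changed by -0.29 on the log2 scale (exact permutation test, two-sided p = 0.5).

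EEF2, the translocase (ENSG00000167658, chr19:3976056-3985469), was at 787, 808 and 774 FPKM with PBS and at 684, 690 and 686 FPKM with metformin. The groups did not overlap and the log2 change was -0.20 (SE 0.03, limma adjusted p = 0.00178), but it was 0.18 (limma adjusted p = 0.0151) after quantile normalization, which sets the highest-ranked genes of all libraries to common values. EEF1B2, which recharges eEF1A with GTP, was at 110, 121 and 114 FPKM with PBS and at 86.2, 91.7 and 82.4 FPKM with metformin, and fell by 0.40 on the log2 scale (SE 0.06, limma adjusted p = 0.00116). EEF1D, a second exchange subunit, was at 12.2 ± 0.43 and 11.7 ± 0.66 FPKM (SD, n = 3; limma adjusted p = 0.46).

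EEF1G, the structural subunit of the exchange complex, did not pass. It was at 423, 495 and 306 FPKM with PBS and at 483, 500.0 and 486 FPKM with metformin (log2 change 0.29, SE 0.16, limma adjusted p = 0.166). PBS replicate 3 was low, and without PBS replicate 2 the gene passed (log2 change 0.44, limma adjusted p = 0.0358). AP002990.1, which shares 2714 exon bases with EEF1G on the same strand, was at 26.2, 4.85 and 96.4 FPKM with PBS and at 5.99, 4.34 and 5.46 FPKM with metformin, highest in that same library. The sum of both did not pass (log2 change 0.14, SE 0.08, limma adjusted p = 0.159), and it too adds FPKM scaled to each gene's own length.

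The enzymes that act on the elongation factors were lower or did not pass: of 5, none rose, 3 fell and 2 did not pass, with a median of -0.37. EEF2K, the calcium-regulated kinase that inhibits eEF2 (ENSG00000103319, chr16:22206282-22288732), was at 6.61, 6.29 and 6.26 FPKM with PBS and at 3.00, 3.00 and 3.12 FPKM with metformin. The libraries of each group were tight and far from the other group, a 2.10-fold fall in FPKM (log2 change -0.87, SE 0.07, limma adjusted p = 6.93e-05). EEF1AKMT1, a lysine methyltransferase of eEF1A (ENSG00000150456, chr13:20728731-20773958), was at 4.09, 4.78 and 4.06 FPKM with PBS and at 1.11, 0.714 and 1.38 FPKM with metformin. Its level with metformin was 4.04-fold lower, the largest fold among the members tested (log2 change -1.37, SE 0.14, limma adjusted p = 0.000248). EEF1AKMT2, a second such enzyme, fell from 4.19 ± 0.83 to 2.99 ± 0.25 FPKM (SD, n = 3; log2 change -0.37, limma adjusted p = 0.0422), a call lost in 5 of the 6 fits that left out 1 library (limma adjusted p 0.0668 to 0.117). EEF1AKMT2 shares 628 exon bases on the same strand with AC068896.1, at means of 0.974 FPKM with PBS and 1.447 FPKM with metformin. EEF1AKMT3 and EEF2KMT, which methylate eEF1A and eEF2, had log2 changes of 0.43 (limma adjusted p = 0.109) and -0.08 (limma adjusted p = 0.358).

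Many mRNAs of the translation apparatus begin with a C followed by a run of pyrimidines, the terminal oligopyrimidine motif through which mTORC1 controls their translation. The RefSeq promoter table (GRCh38.p14) held 64 start windows of 48 members. A C at the annotated start followed by at least 4 C or T was present in 11 members and in 17.2% of member windows, beside 4.07% of 35116 windows over all genes in the table. The starts of members that rose or fell are shown to set the 2 directions side by side, each with 10 bases before the start and 20 from it on. The run is in capitals and begins at the start site.
EEF1A1: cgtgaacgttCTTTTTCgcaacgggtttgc
EIF4B: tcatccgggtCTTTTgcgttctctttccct
EIF2D: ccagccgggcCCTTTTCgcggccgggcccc
EEF2: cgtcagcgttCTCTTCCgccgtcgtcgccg
EEF1B2: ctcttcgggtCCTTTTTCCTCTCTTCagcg
EIF3K: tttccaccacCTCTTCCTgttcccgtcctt
EIF4A2: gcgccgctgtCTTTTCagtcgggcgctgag
These windows lie at chr6:73521013-73521042 (minus strand), chr12:53006446-53006475 (plus), chr1:206612446-206612475 (minus), chr19:3985444-3985473 (minus), chr2:206159885-206159914 (plus), chr19:38619178-38619207 (plus) and chr3:186783567-186783596 (plus). The first 3 belong to members that rose and the other 4 to members that fell. The 4 further members with such a start, EIF2A, EIF3D, EIF3F and EIF3M, did not pass. The 11 genes had a median log2 change of -0.05, from -0.63 to 0.61, and the 32 tested members with a window and no such run had a median of -0.20, with 6 higher, 15 lower and 11 not called.

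The E-box CACGTG, bound by MYC, USF and TFEB proteins, was searched in windows of 300 bases that run from 250 bases before the start to 50 after it. Since it reads the same on both strands, 1 search covers them. It was found for 12 members and in 18.8% of member windows, beside 7.26% of all windows. Of the 12, 3 rose, 6 fell, 2 did not pass and 1 was not tested. The site nearest the start is shown for those members that were called with a change of 0.5 or more in log2, in either direction, with the motif in capitals and 11 bases on each side, in the direction of the gene.
EIF1B: cgcgggacggtCACGTGggaggggccgc
EIF5A2: agggcgctcttCACGTGactgggcggag
EEF2K: ctgggggcggcCACGTGagcgccacgcc
EIF4A3: cagttccctttCACGTGacgaagagtgc
EIF3K: gaggaagaagtCACGTGgcagccggaaa
EIF4E: gacatatccgtCACGTGgccagaagctg
They lie at chr3:40309642-40309669, chr3:170908783-170908810, chr16:22206208-22206235, chr17:80147233-80147260, chr19:38619074-38619101 and chr4:98929189-98929216, and EIF5A2 and EIF4E hold a second copy each. The first 2 genes rose and the other 4 fell, so windows with the same letters were found in both directions. The motif TGATGNAA, the core of the element read by ATF4 with CEBP proteins (searched on both strands), was in 1.56% of member windows, that of EIF4E3, beside 3.62% of all. The cyclic AMP element TGACGTCA was in 1.56%, that of EEF2, beside 1.85% of all. A match is a description of letters, not a sign of binding, and promoter entries were matched by symbol. The shares over all windows, here and for the pyrimidine starts, were not matched to the members for expression or base content.

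Other genes of the pathway were read from lists of 62 genes outside the membership, of which 59 were tested. Of these, 18 rose (30.5%), 17 fell (28.8%) and 24 did not pass, with a median of 0.02. Over all tested genes, 31.0% rose and 25.2% fell, so these shares were near the background. The largest rise was in PPP1R15A, the inducible subunit that directs protein phosphatase 1 to phosphorylated eIF2, at 26.0 FPKM with PBS and 188 FPKM with metformin (means of n = 3), which is 7.23-fold (log2 change 2.81, limma adjusted p = 9.13e-07). Of the 5 phosphatase subunits 2 rose and 2 fell: PPP1R15B, the constitutive counterpart, also rose (17.0 to 31.7 FPKM), while the catalytic gene PPP1CA fell (65.2 to 37.3 FPKM). Of 4 tested genes of the eIF2 complex and its assembly, EIF2S2 rose, from 115 to 157 FPKM, and the assembly factor CDC123, at 18.9 and 15.95 FPKM, and EIF2S3 fell, CDC123 no longer passing without PBS replicate 1, PBS replicate 2, metformin replicate 1 or metformin replicate 3 (limma adjusted p 0.0739 to 0.0803). Of 8 kinase and kinase-partner genes acting on the factors, 2 rose and 4 fell. MKNK2, which phosphorylates eIF4E, rose 3.04-fold from 16.0 to 48.5 FPKM, and AKT1S1, an inhibitory mTORC1 subunit, also rose. MLST8, a subunit of the mTOR complexes, fell from 6.19 to 3.21 FPKM, and RPS6KB2, an S6 kinase, from 5.58 to 3.05 FPKM. Among the genes counted as lower, PPP1CC lost its call without PBS replicate 1, PBS replicate 2, metformin replicate 1 or metformin replicate 2 (limma adjusted p 0.0536 to 0.0673), and RPS6KB1 without any 1 library but metformin replicate 1 (limma adjusted p 0.0513 to 0.086).

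Of 9 poly(A)-binding protein genes and partners, 3 rose (33.3%, beside 31.0% of all tested genes) and none fell. The largest rise was in PABPC1L, at 5.84 FPKM with PBS and 22.9 FPKM with metformin (3.92-fold). Next came PAIP1, a partner that bridges to eIF4A, at 26.7 and 34.0 FPKM. PAIP1 did not pass without metformin replicate 1 or 2 (limma adjusted p = 0.0548 and 0.0541). Of 8 tested genes for hypusine and diphthamide, the modified histidine of eEF2, 4 rose and none fell. Those 4 were the diphthamide genes DPH5 (6.31 to 10.99 FPKM), DPH3 (3.92 to 6.51 FPKM), DPH7 and DNAJC24, while the transcript of eEF2 itself fell. The call of DPH7 was lost with any 1 library left out (limma adjusted p 0.0631 to 0.0961) and that of DNAJC24 without PBS replicate 1, PBS replicate 2, metformin replicate 1 or metformin replicate 2 (limma adjusted p 0.0536 to 0.0617). Of 10 helicases and cofactors, 1 rose and 3 fell, among them BZW2, an eIF5 mimic, from 31.9 to 13.2 FPKM, and CYFIP1, an eIF4E-binding protein, from 15.0 to 9.61 FPKM. Of 5 tested termination and rescue genes, 1 rose and 2 fell. PELO rose from 10.5 to 14.1 FPKM, while HBS1L, its binding partner, fell from 6.19 to 4.36 FPKM, a call lost with both libraries numbered 3 left out (limma adjusted p = 0.0776). The second gene that fell, ABCE1, lost its call without any 1 library but metformin replicate 2 (limma adjusted p 0.0511 to 0.1). The 10 mitochondrial translation factors divided evenly, with 4 higher, such as MTRF1 (3.89 to 6.86 FPKM), and 4 lower, such as GFM1 (14.6 to 8.92 FPKM).

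**Figure D5:**
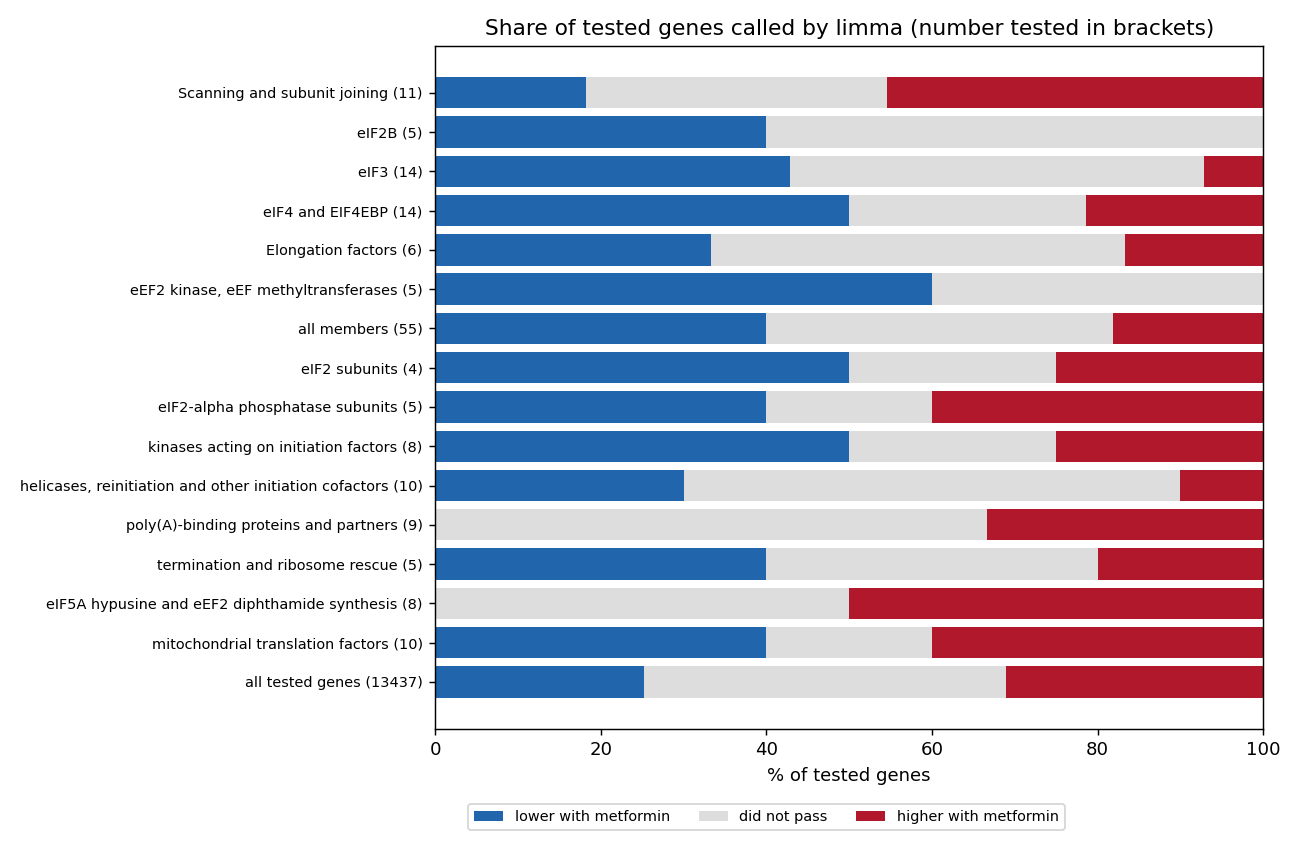
Percent of tested genes (x axis) that were lower (blue), not called (grey) or higher (red) with metformin, for each role group of members, all members, each list of other translation genes and all tested genes, with the number tested in brackets. Members show 40.0% lower and 18.2% higher, and all tested genes show 25.2% lower and 31.0% higher.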

How the data were processed

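Each library's deposited values are in FPKM per the file headers, on GRCh38 by the submitters' processing notes. How reads were aligned, assigned to genes and handled by strand is not given in the sources used here, so genes that share exon bases are uncertain: this holds for 26 of the 55 tested members, 5 of them on the same strand. FPKM is relative to all mapped fragments. All 13437 genes averaging 1 FPKM or more were fitted as log2(FPKM + 1) with limma 3.58.1 (intensity trend, two-sided, group as the only term), with Benjamini-Hochberg adjustment over all of them and a threshold of 0.05. A fold is a ratio of group means in FPKM. The fit was tested on simulated data. Symbols and coordinates came from GENCODE 29, exon overlaps from BEDTools 2.31.1 and start windows from RefSeq, which matched 48 members; EEF1D, EIF3A, EIF3G, EIF3H, EIF4EBP1, EEF2KMT, EIF3CL, EIF3E, EEF1AKMT1, EIF3L, EEF1AKMT3 and EEF1A2 had no entry there. Values in every library are given for members called with a change of 0.5 or more (log2) and for a set chosen by role, and group means for the 2 called genes with the largest change of each other list; further genes and library values were chosen after they were seen. The rule for members reads symbols alone, but members and lists were chosen with earlier results of these data known. Alternatives were other pseudocounts, level filters and scalings, a replicate block, limma settings, each library left out in turn and, added after seeing the data, sums of genes that share exons. Such sums add FPKM, each scaled to its own gene's length, and are not counts of fragments. A marker beyond those named is not reported here.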

Additional observations from a re-analysis of the deposited data

How the results depend on the processing

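Over 19 alternative settings, between 27 and 33 members were called, and each member called both there and in the reported fit kept its direction, except EEF2 under quantile normalization (log2 change 0.176). The EEF1A2 log2 change was -0.0305 under median-of-ratios scaling, -0.148 under quantile normalization and -0.0678 to 0.115 with 1 library left out. For EIF4EBP1 these were -0.0078 under median-of-ratios scaling, -0.0515 with both libraries numbered 3 left out and -0.0183 to 0.126 with 1 library left out. Among members that did not pass, signs near 0 turned: under quantile normalization EIF3D was at 0.0181, EIF3G at 0.0031 and EIF4H at 0.0856, under median-of-ratios scaling EIF3E was at -0.0078, EIF6 at -0.0471 and the hypusine gene DOHH at -0.0136, and with both libraries numbered 3 left out EIF5 was at 0.133 and DOHH at -0.0258. With 1 library left out, EIF2B5 ranged from -0.106 to 0.0241, EIF3F from -0.0005 to 0.139, EIF3G from -0.13 to 0.0093, EIF3H from -0.0355 to 0.174, EIF5 from -0.324 to 0.0020, EIF6 from -0.0098 to 0.0320 and the EIF4EBP1 to EIF4EBP2 ratio from -0.0809 to 0.0664. Members outside the reported calls that passed with 1 library left out were EIF1AX without PBS replicate 1 or metformin replicate 2 (limma adjusted p = 0.0353 and 0.0354), EIF3J without PBS replicate 1 (0.0294), and EEF1AKMT3, EEF1G and EIF4H without PBS replicate 2 (0.0406, 0.0358 and 0.0392). EIF1AX also passed as lower with a mean of at least 5 FPKM and with protein-coding genes alone (limma adjusted p = 0.0493 and 0.0487). Under median-of-ratios scaling EIF1AX, EIF3M and EIF4H passed as lower (limma adjusted p = 0.0242, 0.0298 and 0.0262). The number of elongation factors that rose was 0 without the level filter, 0 under median-of-ratios scaling, 2 under quantile normalization, 0 without the intensity trend and 0 to 2 with 1 library left out; the number that fell was 1 without the level filter and 1 under quantile normalization. Of the eEF2 kinase and methyltransferase genes, 0 fell with a mean of at least 5 FPKM, where fewer genes are tested, and 0 to 1 rose with 1 library left out. Without both libraries numbered 3, the genes that fell included 1 of eIF2B and 11 other translation genes; with 1 library left out, 11 to 15 other translation genes fell, the fewest without PBS replicate 1. Beyond the construction of a setting, the cause was not tested. Same-numbered libraries did not deviate together (correlations -0.000355, 0.0304 and -0.0105). This cannot show whether the numbers mark matched cultures or runs, and the labels do not say. The fit with a replicate block called 31 members and lost EIF4ENIF1 (limma adjusted p = 0.0583). At a roughly estimated 7810000 to 8820000 fragments a library, the SE of the log2 change did not follow level alone. It was 0.13 for the low gene EEF1A2 and 0.03 for the abundant EEF2, but 0.16 for the abundant EEF1G and 0.06 for the low gene EIF2D.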
